A study of Mus musculus with 8 samples.

Results

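Inflammasomes are cytosolic complexes that activate inflammatory caspases, and 10 of their genes were followed through RNA-seq of splenic B cells isolated from 8 transgenic mice with lymphoproliferative disease. The genes were Casp1, Casp4, Nlrp3, Nlrc4, Aim2, Pycard, Gsdmd, Il1b, Il18 and Il1r2, chosen by symbol from the 24902 symbols of the count matrix. The choice used measured values, since Casp1 and Casp4 had been noticed as low in the library of the single Eµ-TCL1 mouse. The levels in that mouse are therefore described and not tested. The only replicated comparison, of Eµ-PRMT5/TCL1 with Eµ-PRMT5 mice, did not set that library against others, although all 8 share an estimate of the spread, and is given with its test.

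The 4 Eµ-PRMT5 mice carried Eµ-hPRMT5, the 3 Eµ-PRMT5/TCL1 mice carried Eµ-hPRMT5/hTCL1, and the 1 Eµ-TCL1 mouse carried Eµ-hTCL1, all on a strain labelled C57BL/6N. PRMT5 is an arginine methyltransferase, TCL1 is a coactivator of AKT whose expression in B cells gives mice a disease like chronic lymphocytic leukemia (CLL), and the Eµ enhancer of the immunoglobulin heavy chain locus directs both transgenes to B lineage cells. In the study's methods the human PRMT5 cDNA was expressed in immature and mature B cells, the line it characterized derived from a single founder, and double transgenic mice came from a cross of these animals with homozygous Eµ-TCL1 mice. All animals had reached early removal criteria, at ages not stated for these libraries, and there was no wild-type library, so each value describes B cell isolates of diseased spleens. If the mouse numbers in the labels are those of the paper, Eµ-PRMT5 mice 3 and 4 differed in histology. The paper describes anaplastic large lymphocytes with histiocytes in mouse 3 and sheets of small lymphocytes in mouse 4. B cells were enriched by negative selection of untouched pan-B cells, and the labels do not say whether 2 libraries share a litter. The p-values accordingly measure the spread between these mice. The libraries held 3356297 to 10252426 counts on genes, fewest in the Eµ-TCL1 mouse.

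An inflammasome forms when a sensor detects a microbial or danger signal and recruits procaspase-1, usually through the adaptor ASC. Sensors include NLRP3, which responds to ion fluxes and membrane damage, NLRC4, which acts with NAIP proteins on bacterial flagellin and secretion systems, and AIM2, which binds cytosolic double-stranded DNA. Active caspase-1 cleaves the precursors of the cytokines IL-1β and IL-18 and releases the pore-forming fragment of gasdermin D. The product of mouse Casp4, often called caspase-11, responds to cytosolic lipopolysaccharide and cleaves gasdermin D itself. Macrophages, monocytes and neutrophils are the cells best known for this pathway, and the decoy receptor IL1R2, which binds IL-1 without signaling, is abundant on neutrophils.

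On the log2(CPM + 1) scale, the inflammatory caspase genes had the largest differences of the 10 between the Eµ-TCL1 mouse and the mean of the others. Casp1 measured 6.22 CPM there (CPM, counts per 1000000 after TMM scaling of library size) against 71.0 ± 19.6 CPM (SD, n = 7) in the other mice, and Casp4 measured 6.76 against 50.7 ± 25.6 CPM. The DNA sensor gene Aim2 and the pore gene Gsdmd were also lowest in that mouse, whereas the adaptor gene Pycard was near the mean of the others and Nlrp3 was above it. Between the replicated genotypes none of the genes passed the test.

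Casp1 (ENSMUSG00000025888) lies on the plus strand of chromosome 9 in GRCm38, chr9:5298517-5307265, and Casp4 (ENSMUSG00000033538) follows on the same strand at chr9:5308828-5336783. Only 1562 bases separate the end of Casp1 from the start of Casp4. The promoter windows of the 2 caspase genes and of Aim2 are shown because these genes were low together in 1 mouse. Each holds the 250 bases before and the 50 bases after a RefSeq start site (GRCm38.p6, plus strand, at chr9:5298267-5298566, chr9:5308599-5308898 and chr1:173420354-173420653). Capitals mark matches to a searched motif on either strand.
Casp1: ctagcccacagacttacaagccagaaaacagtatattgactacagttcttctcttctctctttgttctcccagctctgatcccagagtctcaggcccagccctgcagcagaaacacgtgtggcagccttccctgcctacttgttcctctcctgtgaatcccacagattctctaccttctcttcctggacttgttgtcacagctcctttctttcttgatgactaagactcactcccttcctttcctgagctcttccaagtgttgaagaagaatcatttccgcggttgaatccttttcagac
Casp4: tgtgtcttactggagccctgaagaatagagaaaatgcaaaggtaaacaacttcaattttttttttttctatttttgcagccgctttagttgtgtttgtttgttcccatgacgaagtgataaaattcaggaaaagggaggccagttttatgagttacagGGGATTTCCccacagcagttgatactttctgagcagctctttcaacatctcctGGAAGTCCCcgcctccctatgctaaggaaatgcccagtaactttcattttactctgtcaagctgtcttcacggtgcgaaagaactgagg
Aim2: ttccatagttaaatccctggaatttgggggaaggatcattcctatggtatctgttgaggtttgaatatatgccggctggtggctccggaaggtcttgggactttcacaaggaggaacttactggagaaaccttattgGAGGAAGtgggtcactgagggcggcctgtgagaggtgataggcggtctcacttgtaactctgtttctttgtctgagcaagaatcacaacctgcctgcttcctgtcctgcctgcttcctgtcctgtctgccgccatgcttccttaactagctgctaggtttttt

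The motifs searched were GAAANNGAA (the core of the interferon-stimulated response element), TTCNNNGAA (a STAT site), GGGNNTTCC (NF-kB-like) and GAGGAAG (the core bound by PU.1), with N for any base. The Casp4 window held 2 NF-kB-like matches, which began 92 and 39 bases before the start site, and the Casp1 window held a match to none of the 4 motifs. The Aim2 window held 1 match to the PU.1 core. Of the 10 genes, 9 had a RefSeq promoter, in 11 windows, and Gsdmd had none. NF-kB-like matches occurred in 4 of the 11 windows, 2 of them the overlapping windows of Casp4 and 2 from Nlrp3, beside 5.82% of all 32851 windows in the table. The STAT site was found in 1 window (Il1r2; 8.30% of all windows), the PU.1 core in 3 (Aim2, Pycard and Nlrp3; 13.6%) and the interferon-stimulated core in 0 (8.56%).

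Levels of different genes were compared per kilobase of exonic length. By the median over the mice the order was Gsdmd (64.9 CPM per kb), Casp1 (42.0), Pycard (24.5), Aim2 (14.0), Casp4 (11.2), Il1b (9.01), Il1r2 (7.26), Nlrc4 (7.03), Il18 (6.69) and Nlrp3 (1.25, over 7 mice). The ranges of all neighbours in this order overlapped. Within a mouse, Gsdmd exceeded Casp1 in 6 of 8 mice, Casp1 exceeded Pycard in 7 of 8, and Nlrc4 exceeded Il18 in only 4 of 8. Casp1 held rank 1, 2 or 3 of the genes in each of the 7 Eµ-PRMT5 and Eµ-PRMT5/TCL1 mice and rank 5 in the Eµ-TCL1 mouse, where Casp4 held rank 10, the lowest.

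Casp1 measured 63.9, 70.6, 57.0 and 111 CPM in Eµ-PRMT5 mice 1 to 4, 79.5, 61.9 and 53.0 CPM in Eµ-PRMT5/TCL1 mice 1 to 3, and 6.22 CPM in the Eµ-TCL1 mouse. The 7 first values lay within a factor of 2.09, and the last was 8.53-fold below the lowest of them. The Eµ-TCL1 value rests on 23 counts, with an exact 95% Poisson interval of 3.94 to 9.33 CPM that covers counting error only. At the lowest level of the other mice that library would have held 196 counts of Casp1. The mean was 12.2-fold higher in Eµ-PRMT5 and 10.4-fold higher in Eµ-PRMT5/TCL1 mice, 2 ratios that share the same single library. On the log2(CPM + 1) scale Casp1 lay 3.28 below the mean of the 7, the second lowest difference of 13173 genes tested. Casp1 was picked for its low level in this library, so nothing is read from that rank.

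Casp4 measured 61.5, 74.6, 23.7 and 89.1 CPM with PRMT5 alone (Eµ-PRMT5), 48.0, 35.0 and 22.6 CPM in Eµ-PRMT5/TCL1 mice, with 6.76 CPM in the Eµ-TCL1 mouse. It varied more than Casp1 among the 7 mice, with a coefficient of variation of 50.6% against 27.6%. The Eµ-TCL1 value (25 counts, interval 4.37 to 9.98 CPM) was 3.34-fold below the lowest of them. The log2 difference of Casp4 from the mean was -2.57, and 15 of the genes tested, itself included, were that low or lower. Casp4 was picked for the same reason as Casp1, and nothing is read from its rank either.

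**Figure D1:**
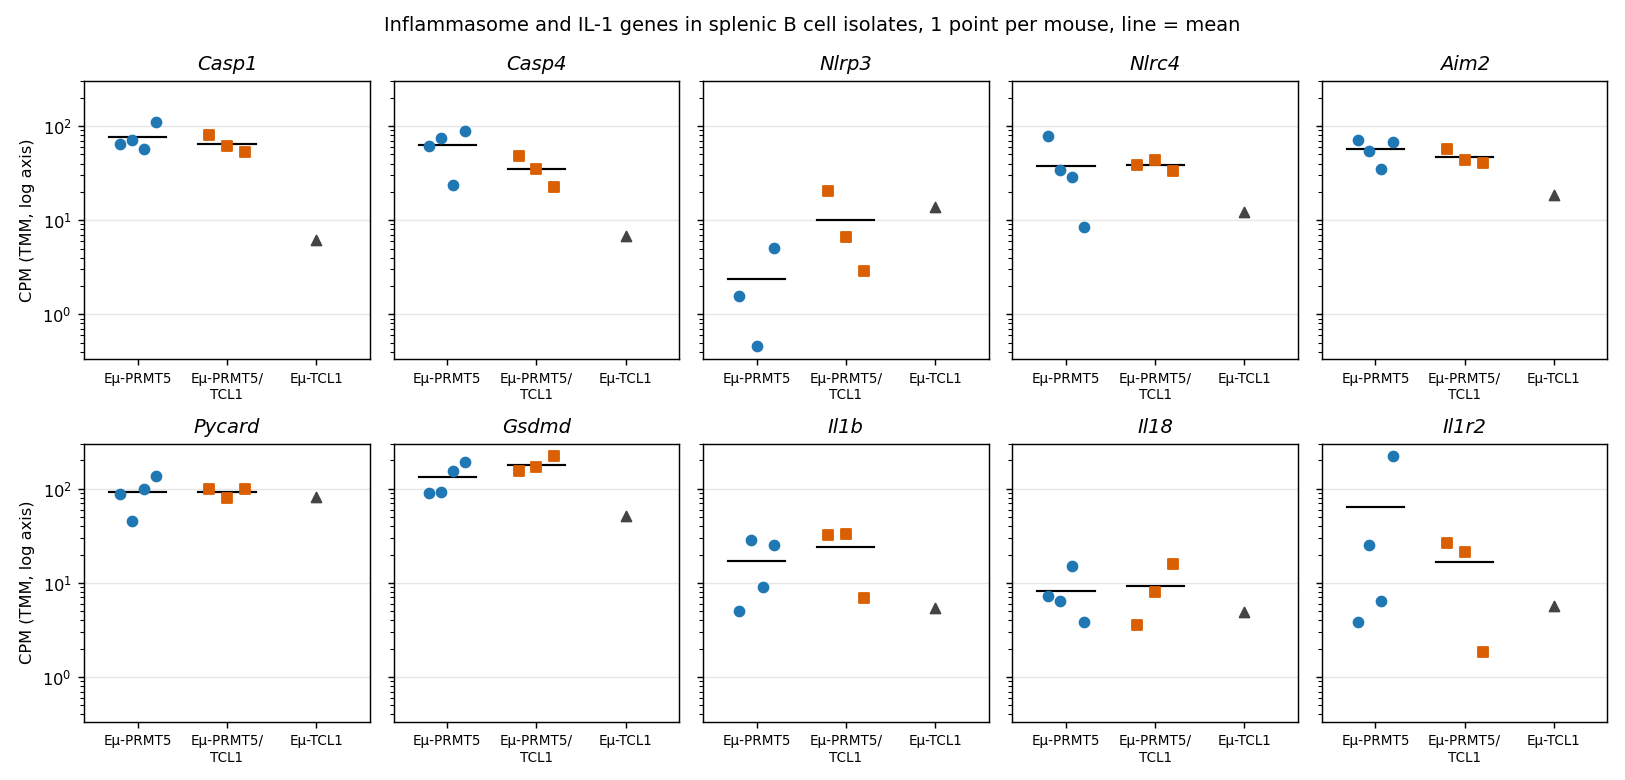
Level of each gene in each mouse, in CPM on a log axis shared by all panels, by genotype (circles, 4 Eµ-PRMT5; squares, 3 Eµ-PRMT5/TCL1; triangle, 1 Eµ-TCL1); lines are the means of groups of more than 1 mouse. Nlrp3 has no value in Eµ-PRMT5 mouse 1. Casp1 lay between 53.0 and 111 CPM in 7 mice and at 6.22 CPM in the Eµ-TCL1 mouse.

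The sensor genes lie on different chromosomes of GRCm38, Aim2 at chr1:173350879-173466040 (plus strand), Nlrc4 at chr17:74425438-74459142 (minus) and Nlrp3 at chr11:59541568-59566956 (plus). Aim2 measured 71.2, 54.6, 34.7 and 67.9 CPM with PRMT5 alone (Eµ-PRMT5), 56.9, 43.5 and 40.1 CPM in Eµ-PRMT5/TCL1 mice, with 18.7 CPM in the Eµ-TCL1 mouse. The Eµ-TCL1 value was 1.86-fold below the lowest of the others. Nlrc4 measured 78.9, 34.4, 28.7 and 8.42 CPM with PRMT5 alone (Eµ-PRMT5), 38.4, 43.3 and 33.2 CPM in Eµ-PRMT5/TCL1 mice, with 12.2 CPM in the Eµ-TCL1 mouse. The Eµ-TCL1 mouse was second lowest for Nlrc4, above Eµ-PRMT5 mouse 4. Nlrp3 measured 1.58, 0.456 and 5.07 CPM in Eµ-PRMT5 mice 2 to 4, where it rests on few counts (10 in mouse 2 and 2 in mouse 3), and the matrix gives no value for mouse 1. It measured 20.3, 6.58 and 2.92 CPM in Eµ-PRMT5/TCL1 mice and 13.8 CPM (51 counts, interval 10.3 to 18.1 CPM) in the Eµ-TCL1 mouse. Only Eµ-PRMT5/TCL1 mouse 1 exceeded the Eµ-TCL1 mouse, so Nlrp3 was the only gene of the 10 whose Eµ-TCL1 level lay above the mean of the other mice, by 1.58 on the log2 scale.

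Pycard, which encodes ASC, lies at chr7:127989708-127993867 (minus strand) and Gsdmd, which encodes gasdermin D, at chr15:75862327-75867408 (plus strand). Pycard measured 87.1, 45.1, 99.4 and 138 CPM with PRMT5 alone (Eµ-PRMT5), 99.8, 79.6 and 98.8 CPM in Eµ-PRMT5/TCL1 mice, with 82.2 CPM in the Eµ-TCL1 mouse. The Eµ-TCL1 level sat among those of the others, with a log2 difference of -0.11 from their mean. Gsdmd measured 89.7, 92.6, 155 and 192 CPM with PRMT5 alone (Eµ-PRMT5), 153, 169 and 221 CPM in Eµ-PRMT5/TCL1 mice, with 51.1 CPM in the Eµ-TCL1 mouse. The last value was 1.76-fold below the lowest of the others. Exons of Pycard overlap 485 bases of Gm45205 on the other strand, and those of Il1b overlap 25 bases of Il1bos. Reads there cannot be assigned with certainty, since whether counting used strand is not given in the sources used here.

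The cytokine genes Il1b (chr2:129364570-129371139, minus strand) and Il18 (chr9:50554827-50581840, plus strand) measured at most 32.7 CPM in every library. Il1b measured 5.07, 28.7, 9.12 and 25.3 CPM with PRMT5 alone (Eµ-PRMT5), 32.3, 32.7 and 6.92 CPM in Eµ-PRMT5/TCL1 mice, with 5.41 CPM in the Eµ-TCL1 mouse. Il18 measured 7.31, 6.49, 15.3 and 3.80 CPM, then 3.61, 8.01 and 16.0 CPM, and 4.87 CPM in the same order of mice. For both genes the Eµ-TCL1 level fell between those of the others, near the lower end. Il1r2 (chr1:40074079-40125231, plus strand) measured 3.86, 25.2, 6.38 and 221 CPM with PRMT5 alone (Eµ-PRMT5), 26.7, 21.3 and 1.84 CPM in Eµ-PRMT5/TCL1 mice, with 5.68 CPM in the Eµ-TCL1 mouse. Eµ-PRMT5 mouse 4 was 8.26-fold above the next highest mouse for Il1r2. The paper lists Il1r2 as upregulated in Eµ-PRMT5 over Eµ-TCL1 tumors, a comparison with more Eµ-TCL1 mice than the single library here. Apart from mouse 4, the Eµ-PRMT5 values here were 3.86 to 25.2 CPM, beside 5.68 CPM in the Eµ-TCL1 mouse.

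By the rule of lying below all 7 other mice and more than 2-fold below their mean, 4 of the 9 genes with a value in every library were low in the Eµ-TCL1 mouse (Casp1, Casp4, Aim2 and Gsdmd). The same held for 5.02% of all 13173 genes tested, and 14.2% lay below all 7 whatever the size of the difference. Casp1 and Casp4 were picked for this pattern, so nothing is read from the count. None of the 9 lay above all 7, beside 21.3% of all genes (14.0% more than 2-fold above their mean). The median log2 difference was -1.41 over the 9 genes and 0.09 over all genes tested. The rule took the mean of log2(CPM + 1). Of the 4 low genes Aim2 had the smallest difference from that mean (-1.41), and Gsdmd lay closest to the lowest other mouse (1.76-fold below it). Nlrc4 (-1.35) and Il1b (-1.42) fell outside the rule, each with 1 other mouse lower still.

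**Figure D2:**
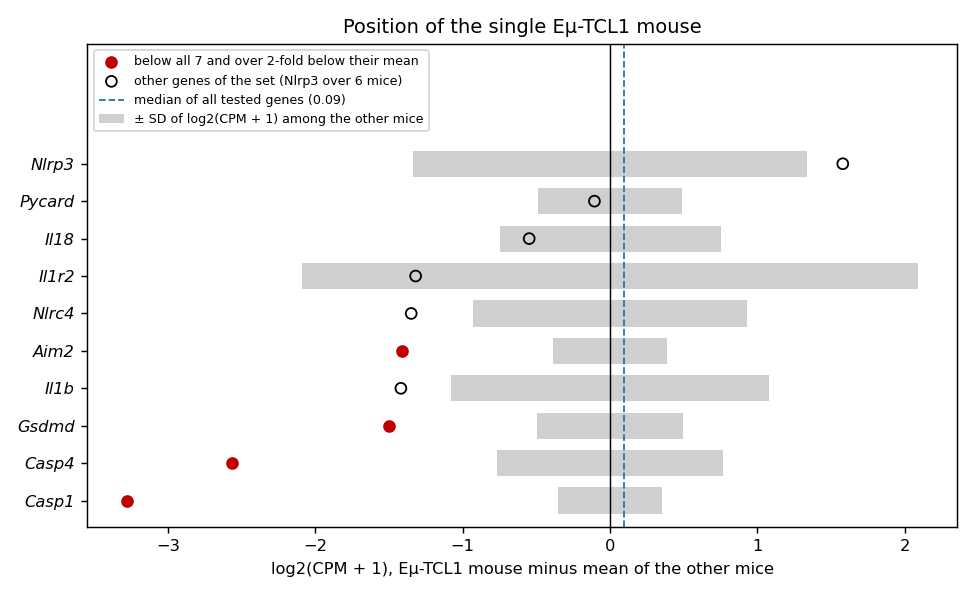
Difference of log2(CPM + 1) between the Eµ-TCL1 mouse and the mean of the 7 others for each gene (points; 6 others for Nlrp3), with the SD among those others as grey bars and the median of all tested genes as a dashed line. Casp1 at -3.28 and Casp4 at -2.57, the genes noticed as low in this mouse, lie outside the grey bars. So do Gsdmd, Il1b, Aim2 and Nlrc4 on the low side and Nlrp3 on the high side. Pycard at -0.11, Il18 and Il1r2 lie inside.

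Marker genes of other cell types were read beside these levels, since bulk RNA cannot tell fewer cells of a type from less RNA per cell. All 9 B cell markers had a value in every library, with sums of 2120 to 7350 CPM in Eµ-PRMT5, 3890 to 9250 in Eµ-PRMT5/TCL1 and 5430 CPM in the Eµ-TCL1 mouse. Neutrophil markers (15 of 16 genes with a value in every library) summed to 2810, 2320, 458 and 5590 CPM with PRMT5 alone (Eµ-PRMT5), 9420, 5220 and 697 CPM in Eµ-PRMT5/TCL1 mice, with 663 CPM in the Eµ-TCL1 mouse. Monocyte and macrophage markers (11 of 16 genes) summed to 1160 to 3700 CPM, 1070 to 7650 CPM and 1160 CPM. Both lists were detected in all isolates, and the neutrophil sum, though not the monocyte and macrophage sum, was lowest in 3 of them, namely mouse 3 of Eµ-PRMT5, mouse 3 of Eµ-PRMT5/TCL1 and the Eµ-TCL1 mouse. In the first 2 of these, Casp1 measured 57.0 and 53.0 CPM at neutrophil sums of 458 and 697 CPM, beside 6.22 CPM at 663 CPM in the Eµ-TCL1 mouse, and Casp4 measured 23.7 and 22.6 beside 6.76 CPM. These are the values by which the caspase genes were noticed, and the part of other cell types in them was not tested.

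The sums of the Eµ-TCL1 mouse sat between the lowest and highest of the other 7 for each of the 7 marker lists. Single genes did not all do so. Lyz2 gave 901 CPM of the monocyte and macrophage sum of 1160 CPM in the Eµ-TCL1 mouse. Among the other genes in that sum, Cd68, Adgre1 and Ly6c2 were lowest of all mice there, and Mertk and Itgam were highest. That sum therefore does not settle how many macrophages this isolate held. Dendritic cell markers (2 of 6 genes) summed to 60.8 CPM in it against 18.3 to 88.3 CPM, T cell markers (4 of 8) to 81.1 against 47.8 to 296 CPM, natural killer (NK) cell markers (3 of 5) to 24.1 against 18.0 to 356 CPM and erythroid markers (3 of 5) to 19.2 against 11.4 to 220 CPM. Of the defining markers, Ly6g was at 0 in Eµ-PRMT5 mouse 1, Itgam in Eµ-PRMT5 mouse 3 and Klf1 in Eµ-PRMT5 mouse 1, and several others lacked a value in some libraries, C1qa, C1qb and C1qc among them. Il1b measured 5.41 to 9.12 CPM in the 3 mice with the lowest neutrophil sums, and it was lowest, at 5.07 CPM, in Eµ-PRMT5 mouse 1 with a neutrophil sum of 2810 CPM. Il1r2 was highest in Eµ-PRMT5 mouse 4, where the neutrophil and monocyte sums were 5590 and 3700 CPM, and Eµ-PRMT5/TCL1 mouse 1 had higher sums of both and 26.7 CPM of Il1r2. The part of these cells in the levels of Il1b and Il1r2 was not tested.

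**Figure D3:**
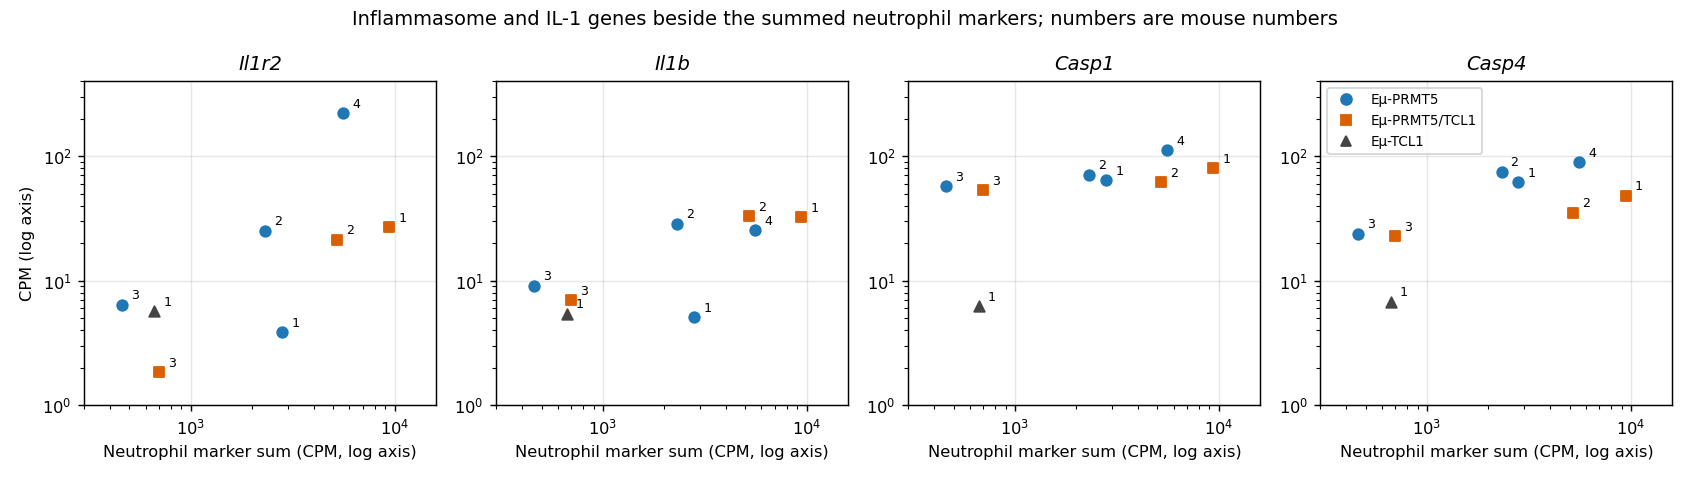
CPM of Il1r2, Il1b, Casp1 and Casp4 (log axes) against the summed CPM of 15 neutrophil markers (log axis), 1 point per mouse, numbered within its genotype. The 3 lowest sums are those of mouse 3 of Eµ-PRMT5 (458), the Eµ-TCL1 mouse (663) and mouse 3 of Eµ-PRMT5/TCL1 (697), and of these only the Eµ-TCL1 mouse had Casp1 below 53.0 CPM.

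In the paper's survival cohorts the median was longer with PRMT5 alone than in double transgenic mice. Any effect of age or disease course on the replicated comparison was therefore not separated from that of genotype. The second question was whether the levels of these genes in double transgenic mice differed from those with PRMT5 alone. None passed an adjusted p under 0.05 with a fold change over 4 in edgeR's quasi-likelihood test with Benjamini-Hochberg adjustment, where all 9 tested genes had an adjusted p of 1.0, and 0% of all 13173 genes passed. The smallest adjusted p over all genes was 0.73. At an unadjusted p under 0.05, 2.17% of all genes differed and none of the 9 did. The groups overlapped for each of the 10 genes. Over all genes, all Eµ-PRMT5/TCL1 mice lay above all Eµ-PRMT5 mice for 1.35% and below them for 1.59%. Log2 fold changes of Eµ-PRMT5/TCL1 over Eµ-PRMT5 were positive for 5 of the 9 genes and negative for 4, with a median of 0.00 beside -0.09 over all genes tested.

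Casp1 gave a log2 fold change of -0.22 (SE 0.35) and Casp4 one of -0.82 (SE 0.47, unadjusted p = 0.103 in edgeR). The Casp4 means were 62.2 ± 28.0 CPM (SD, n = 4) with PRMT5 alone and 35.2 ± 12.7 CPM (SD, n = 3) in double transgenic mice, whose ranges overlapped through Eµ-PRMT5 mouse 3. Aim2 stood at -0.29 (SE 0.36), Nlrc4 at 0.03 (SE 0.57), Pycard at 0.00 (SE 0.38) and Gsdmd at 0.45 (SE 0.36), the last with means of 132 ± 50.1 and 181 ± 35.7 CPM. Il1b at 0.49 (SE 0.67) and Il18 at 0.17 (SE 0.64) had SEs larger than their estimates. The estimate of Il1r2, -1.95 (SE 1.22), turned to 0.48 without Eµ-PRMT5 mouse 4. Nlrp3 had the largest estimate, 1.95 (SE 0.86, edgeR unadjusted p = 0.0422, adjusted p = 1.0), from a fit that left out Eµ-PRMT5 mouse 1, in which it has no value. Its means were 2.37 ± 2.41 CPM and 9.94 ± 9.18 CPM (SD, n = 3 each), and the difference did not exceed the spread after adjustment.

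**Figure D4:**
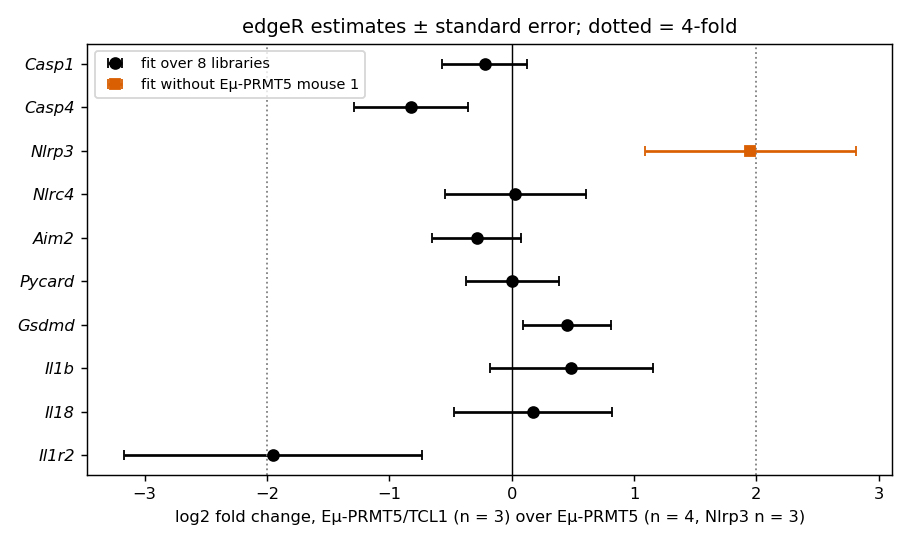
Log2 fold change of Eµ-PRMT5/TCL1 (n = 3) over Eµ-PRMT5 mice for each gene, with the standard error derived from edgeR's F statistic as bars; Nlrp3 (square) comes from the fit without Eµ-PRMT5 mouse 1. Estimates run from -1.95 (Il1r2) to 1.95 (Nlrp3), and none passed the test.

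The 9 genes with complete values were also compared with each other over the 7 mice other than Eµ-TCL1, whose library had drawn attention to them. Of 36 pairs, 8 had an unadjusted exact two-sided permutation p under 0.05 for Pearson's r of log2(CPM + 1), and 0 kept it after Benjamini-Hochberg adjustment over the pairs. Nothing is read from that count of pairs, since the share among pairs of other genes was not computed. The highest was Casp1 with Il1r2, with Pearson's r = 0.926 (exact permutation p = 0.00496, adjusted 0.1, n = 7), and by ranks (Spearman) rho was 0.893, with an exact permutation p = 0.0123 (0.148 after adjustment). The 2 mice farthest from the median of Casp1 were mouse 4 of Eµ-PRMT5 and mouse 1 of Eµ-PRMT5/TCL1, without which r was 0.747. Casp1 and Il18 ran in opposite directions, with Pearson's r = -0.868 (exact permutation p = 0.00556, adjusted 0.1, n = 7). By ranks rho was -0.964, with an exact permutation p = 0.00278 (0.1 after adjustment), and r was -0.935 without the same 2 mice. The neighbours Casp1 and Casp4 were positively related, with r = 0.807 (exact permutation p = 0.0179, adjusted 0.161, n = 7), rho = 0.893 (exact permutation p = 0.0123, 0.148 after adjustment) and r = 0.942 without those 2 mice. Casp4 with Aim2 gave r = 0.897 (exact permutation p = 0.00972, adjusted 0.117, n = 7). For Casp4 with Il18, r was -0.83 (exact permutation p = 0.0248, adjusted 0.179, n = 7). Without mouse 3 of Eµ-PRMT5 and mouse 3 of Eµ-PRMT5/TCL1, these r were 0.739 and -0.389.

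Across all 8 mice the genes whose log2(CPM + 1) was most like that of Casp1 were Rps12 (Pearson's r = 0.963), Preb (0.963), Snrpb2 (0.960), Llph (0.954) and its near-copy Llph-ps2 (0.954), which may share reads. Over the 7 mice without Eµ-TCL1, r fell to 0.167 for Rps12 and 0.374 for Preb, so that those 2 likenesses rest on the Eµ-TCL1 mouse, whereas it was 0.861 for Snrpb2. Most like Casp4 were Zmat2 (0.987), Dph3 (0.973), Txndc17 (0.973), Crcp (0.971) and Prpf38a (0.968), all with r of 0.926 or more over the 7 mice. The 5 genes most like Il1b were Nfkbib (0.984), Ppp1r15b, Mkrn1, Atp6ap1 and Zfp335 (0.935), and those most like Il1r2 were Dctn2 (0.963), Zfp850, Tdg, Ftl1 and Gpn2 (0.937). These are the top values among 13173 genes over 8 points and are descriptions of these libraries.

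A further 46 genes of the pathway were followed, among them other sensors, regulators, the receptors and signaling proteins of the IL-1 family and upstream factors. Of these 37 were tested, and 9 had no value in at least 1 library (Nlrp1a, Nlrp6, Casp12, Gsdme, Il1a, Il1r1, Il1rn, Il33 and Il18bp). In the replicated comparison 0 of 37 passed the test, with a median log2 fold change of 0.03. The groups were non-overlapping for 0 of the 37, beside 1.35% of all genes higher and 1.59% lower in Eµ-PRMT5/TCL1. At an unadjusted p under 0.05 in edgeR 3 were higher and 0 lower, beside 126 higher and 160 lower of all 13173 genes tested. The count of 3 was 1 without Eµ-PRMT5 mouse 2, Eµ-PRMT5 mouse 3 or the first double transgenic mouse, and 7 without Eµ-PRMT5 mouse 4. With all libraries the 3 were Mefv, which encodes pyrin (2.26, SE 0.77, edgeR unadjusted p = 0.0123), the lipopolysaccharide coreceptor gene Cd14 (2.05, SE 0.85, unadjusted p = 0.0324) and the lipopolysaccharide receptor gene Tlr4 (1.04, SE 0.46, unadjusted p = 0.0419), each with an edgeR adjusted p of 1.0. Mefv measured 8.73, 9.34, 5.70 and 26.3 CPM with PRMT5 alone and 142, 28.7 and 10.6 CPM in double transgenic mice. Cd14 measured 70.0, 43.1, 12.1 and 60.3 CPM, then 399, 169 and 9.07 CPM in the same order, and Tlr4 14.4, 11.7, 9.80 and 19.9 CPM, then 36.7, 33.5 and 16.1 CPM. The groups overlapped for all 3, and each was highest in Eµ-PRMT5/TCL1 mouse 1, which also had the highest neutrophil and monocyte marker sums (9420 and 7650 CPM); the part of these cells in these values was not tested.

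In the Eµ-TCL1 mouse 9 of the 37 pathway genes (24.3%) lay below all 7 others, beside 14.2% of all genes, and 3 (8.11%) did so at more than 2-fold below their mean, beside 5.02%. The median log2 difference of the 37 was -0.34. The 3 lowest were Serpinb1a, which encodes an inhibitor of neutrophil proteases and inflammatory caspases (23.5 CPM against 36.3 to 215 CPM, difference -2.39), the interferon-induced transcription factor gene Irf1 (54.3 against 121 to 248 CPM, -1.72) and the guanylate-binding protein gene Gbp2 (67.9 against 36.9 to 598 CPM, -1.45). Irf1 and Serpinb1a lay below all 7 and Gbp2 did not. Exons of Irf1 overlap 135 bases of Gm17334 and those of Gbp2 overlap 24 bases of Mir6381 on the other strand. The 3 highest were Il1rl1, the IL-33 receptor gene (exceeded only in Eµ-PRMT5 mouse 3, at 27.1 CPM, difference 1.37), Nlrp12 (9.73 against 1.15 to 5.74 CPM, 1.22) and P2rx7, the gene of an ATP-gated channel (49.2 against 16.0 to 49.5 CPM, 0.97). Of these 3 Nlrp12 alone lay above all 7, and its exons overlap several microRNA genes on the other strand. Of the 37 genes 3 lay above all 7, beside 21.3% of all genes, and 1 did so at more than 2-fold above their mean, beside 14.0%.

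**Figure D5:**
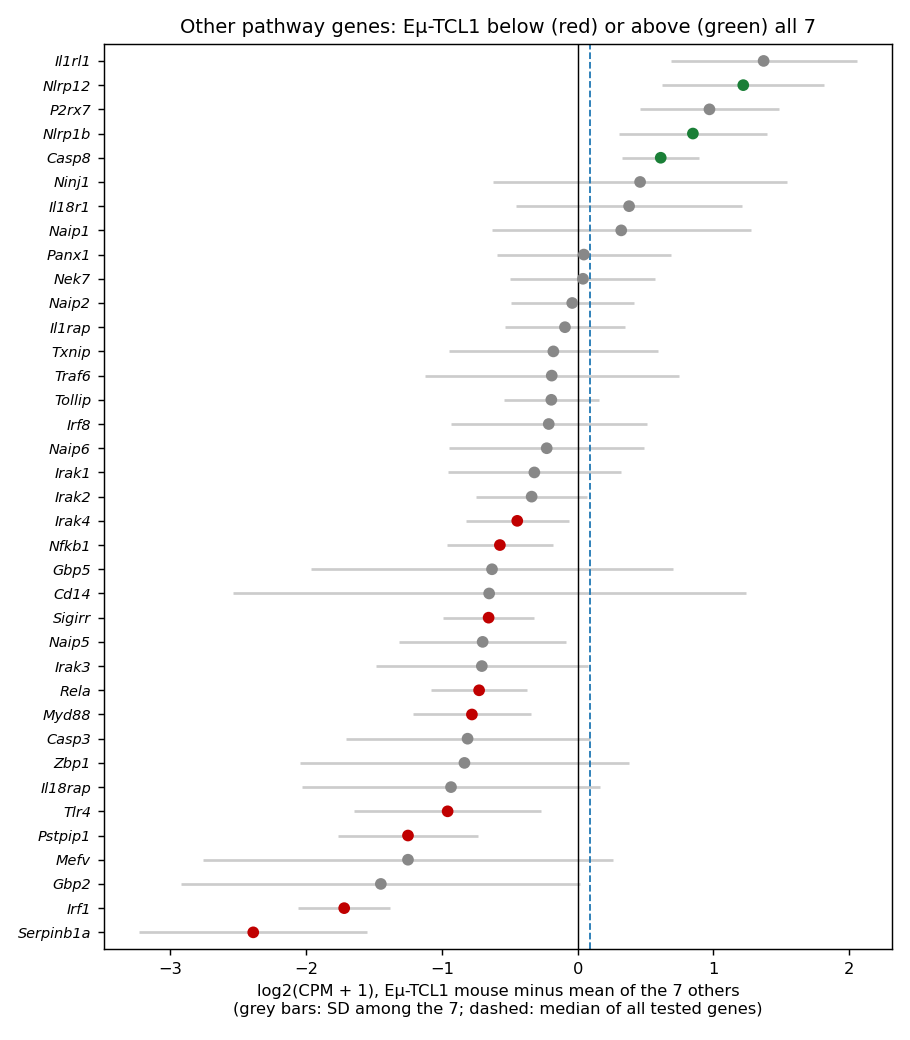
Difference of log2(CPM + 1) between the Eµ-TCL1 mouse and the mean of the 7 others for the 37 further pathway genes with complete values, with the SD among the 7 as grey bars; red points lie below all 7 and green points above all 7. Values run from -2.39 (Serpinb1a) to 1.37 (Il1rl1), with 9 red and 3 green points.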

How the data were processed

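Counts per gene symbol were deposited by the authors in 1 matrix for 8 libraries, with no normalization. Per the labels, splenic B cells were isolated with a pan-B cell kit, and the processing notes name GRCm38, Subread, featureCounts and DESeq2 1.20.0 with no role or order. For B cells of diseased mice at removal criteria the study's methods describe low-input libraries from preamplified cDNA, paired-end sequencing, the CLEAR workflow, which keeps transcripts by their coverage, and the same version of DESeq2. The labels name a stranded mRNA kit instead. The aligner, gene models and strand setting of the low-input libraries are not given in the sources used here. Preamplification without molecular identifiers adds spread that counting intervals do not cover.

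Counts on genes ranged from 3356297 to 10252426 per library, lowest in the Eµ-TCL1 mouse. The matrix leaves 36919 cells without a value, and 1508 cells of Eµ-PRMT5 mouse 1, which has the fewest symbols with a value (16379), hold 0. Missing cells were not read as 0. Of 24902 symbols, 14072 had a value in all 8 libraries, and 13173 of these passed edgeR's expression filter and were tested. Gsdme was found under its synonym Dfna5. CPM used TMM factors, log2 values a pseudocount of 1 CPM. edgeR 4.0.16 in R 4.3.3 fitted all libraries with 3 genotype groups in a quasi-likelihood model (biological coefficient of variation 0.483). SEs of its estimates were derived as the absolute log2 fold change over the square root of the F statistic. The test was checked on simulated data with changes larger than the 4-fold threshold only. Its power for smaller changes was not measured. The single Eµ-TCL1 library has no replicate, so its differences carry no p. Exonic lengths and positions came from GENCODE vM21 (GRCm38) and promoters from RefSeq (GRCm38.p6). The 10 genes, the pathway list, the marker lists and the rules were chosen with earlier results of these data known. Named were all 10 genes, pathway genes at an unadjusted p under 0.05, the 3 lowest and 3 highest in the Eµ-TCL1 mouse, marker genes at 0 or without a value, and the 5 genes most like Casp1, Casp4, Il1b and Il1r2. Alternatives were DESeq2 1.42.0, other scalings, filters and pseudocounts, missing cells as 0, a replicate block, and each library left out.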

Additional observations from a re-analysis of the deposited data

Results flagged for a closer look

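Among 16 values checked in the 4 Eµ-PRMT5 mice (9 genes and 7 marker sums), 3 stood apart from the other mice of the group by Dixon's criterion. Where values follow a normal distribution, chance marks about 1 in 20 such groups, or 0.8 of 16. The criterion was applied to CPM without a log scale, and whether that rate holds for such values was not tested. The count of 3 is therefore not read against it. Mouse 4 had 221 CPM of Il1r2, the other 3 between 3.86 and 25.2 CPM. The monocyte and macrophage marker sum was 3700 CPM in the same mouse, the others giving 1160 to 1450 CPM. The NK cell marker sum was 356 CPM in mouse 3, with 32.9 to 39.2 CPM in the others.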

How the results depend on the processing

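The absence of genes past the threshold in the replicated comparison held under each alternative except DESeq2, which gave 4 genes. They were Ehd2, Rgl1, Slc9a3r2 and Tcf7, named after their values were seen, and none is among the 10 genes or the 37 pathway genes. At an unadjusted p under 0.05 the count was 286 genes in edgeR and 394 in DESeq2, and leaving out 1 library gave 149 (Eµ-PRMT5/TCL1 mouse 2) to 771 (Eµ-PRMT5 mouse 3; 760 without Eµ-PRMT5 mouse 4). The 3 pathway genes at that level became 1 with missing cells as 0, 1 to 7 with 1 library left out, and 7 in the 6 mice of the block, with or without it. Replicate numbers named different animals. Deviations of same-numbered mice correlated at -0.0206, 0.154 and 0.16, and 5 of 6 mice correlated best with their own number. The replicate block, on 6 mice, gave 826 genes at an unadjusted p under 0.05, against 742 in the same mice without it, and 0 past the threshold. In the block and in the same 6 mice without it, log2 fold changes with the opposite sign were 0.0037 and 0.019 for Casp1, -0.17 and -0.31 for Nlrc4, -0.20 and -0.075 for Il18, and 0.22 and 0.48 for Il1r2. Pycard gave -0.0097 with DESeq2 and -0.020 in the fit without Eµ-PRMT5 mouse 1. With 1 library left out the values ran from -0.40 to 0.021 for Casp1, from -0.31 to 0.71 for Nlrc4, from -0.22 to 0.27 for Pycard, from -0.49 to 0.66 for Il18 and from -2.47 to 0.48 for Il1r2. The cause of these turns was not tested, and the lowest adjusted p of any of these genes under any alternative was 0.696. Aim2, Casp4, Gsdmd and Il1b kept their sign throughout, and Nlrp3 gave 2.34 with missing cells as 0.

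In the Eµ-TCL1 mouse the number of low genes was 4 or 5 under all alternatives, with Il1b or Nlrc4 as the addition, while the share of all genes that were low ran from 2.5% with library size only to 6.81% with missing cells as 0. The difference of Casp1 was -2.72 with a pseudocount of 5 CPM and -3.17 to -3.34 with 1 of the other libraries left out. The 23 and 25 counts of Casp1 and Casp4 in 1 library limit how exactly their levels are known.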
